A study of Mus musculus with 27 samples.

Results

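Foxp3+ CD24hi thymocytes were compared with Treg precursors, the step of thymic Treg development at which the transcript of Foxp3 first appeared in these samples. The members were the arrays whose source label names either group, 6 of the 27 arrays in the series, 3 for each group, and the comparison ran over 18194 genes. Regulatory T cells, or Tregs, are CD4 T cells that restrain immune responses, and Foxp3 is the transcription factor that defines them. All cells came from mice of the BALB/c strain background, and all groups used here except the lymph node cells were sorted from thymus. Foxp3+ CD24hi cells carried GFP, labelled together with Foxp3, and a high level of CD24, a surface protein lost during thymocyte maturation. Treg precursors are described in the series title as CD4 single-positive cells that lack the Foxp3 GFP signal and carry CD25, the alpha chain of the interleukin 2 (IL-2) receptor. The labels give no CD24 gate for the precursors, no age or sex of the mice, and no statement on how many mice went into a sample or how GFP was tied to Foxp3. A difference in maturity and the gain of Foxp3 therefore cannot be told apart within this comparison. Reference values came from 3 other comparisons. The first was Foxp3- GFP- CD24int against Foxp3- GFP- CD24hi thymocytes, called the conventional step below, because the series design names the Foxp3- subsets as conventional T cells while the word Treg stands in their source labels. Another was lymph node Tregs against lymph node naive T cells, and neither of these shares an array with the Foxp3 step. The last was the step before, precursors against Foxp3- CD24hi cells, which shares the 3 precursor arrays with the Foxp3 step, so its values are set side by side without an overlap.

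In the thymus, T cells whose receptor binds self peptides strongly can be diverted to the Treg lineage. In the model most often taught, T cell receptor and costimulatory signals first raise CD25, and IL-2 acting through CD25 and the transcription factor STAT5 then switches on Foxp3. Thymocytes also mature with time in the medulla, where they lose the recombination enzymes and CD24 and gain the receptors needed to leave for the periphery.

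Intensities ran from 3.55 to 24083 over all arrays, array medians lay between 30.5 and 31.5 in the 6 arrays, and replicates of either group correlated at 0.987 to 0.993. For scale, the arrays of the groups did not overlap in 26.9% of all genes, with 13.6% above and 13.3% below the precursors. Values below are log2 intensities, listed in the order of replicates 1, 2 and 3, and differences are Foxp3+ CD24hi minus precursor on the log2 scale with the standard error (SE) of the limma model. A gene rose or fell where its adjusted p, over all 18194 genes, was under 0.05. The labels do not say that replicates came from separate mice, so the p-values reflect only the spread among these arrays, which may be technical, and the number of arrays limits the precision. Precursor replicate 3 stood apart from precursor replicates 1 and 2 in transcripts of innate-like T cells, and results that rest on that group are also given with replicate 3 as the only precursor array, a fit in which it is assumed to vary like the other groups and which was chosen after the data were seen. Where a group read below 5, its probe set lay in the dim range of these arrays and may not be above background, so differences are given for such genes without a fold. In sorted bulk samples, fewer cells of a type and less RNA per cell cannot be told apart.

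The step changed 2917 genes, 16.0% of those tested. Of these 1231 rose, 6.77% of all genes, and 1686 fell, 9.27%. At least 2-fold rises were found for 247 genes, or 1.36%, and at least 2-fold falls for 265, or 1.46%. The median difference over all genes was 0.02. With the replicate number as a block, 1849 genes rose and 2594 fell, and with the spread taken from the 6 arrays alone the counts were 819 and 985. Leaving out Foxp3+ CD24hi replicate 2 lowered the count of falls to 1075, and with precursor replicate 3 as the only precursor array 793 genes rose and 1178 fell. For scale, the conventional step changed 911 genes (5.01%).

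**Figure D1:**
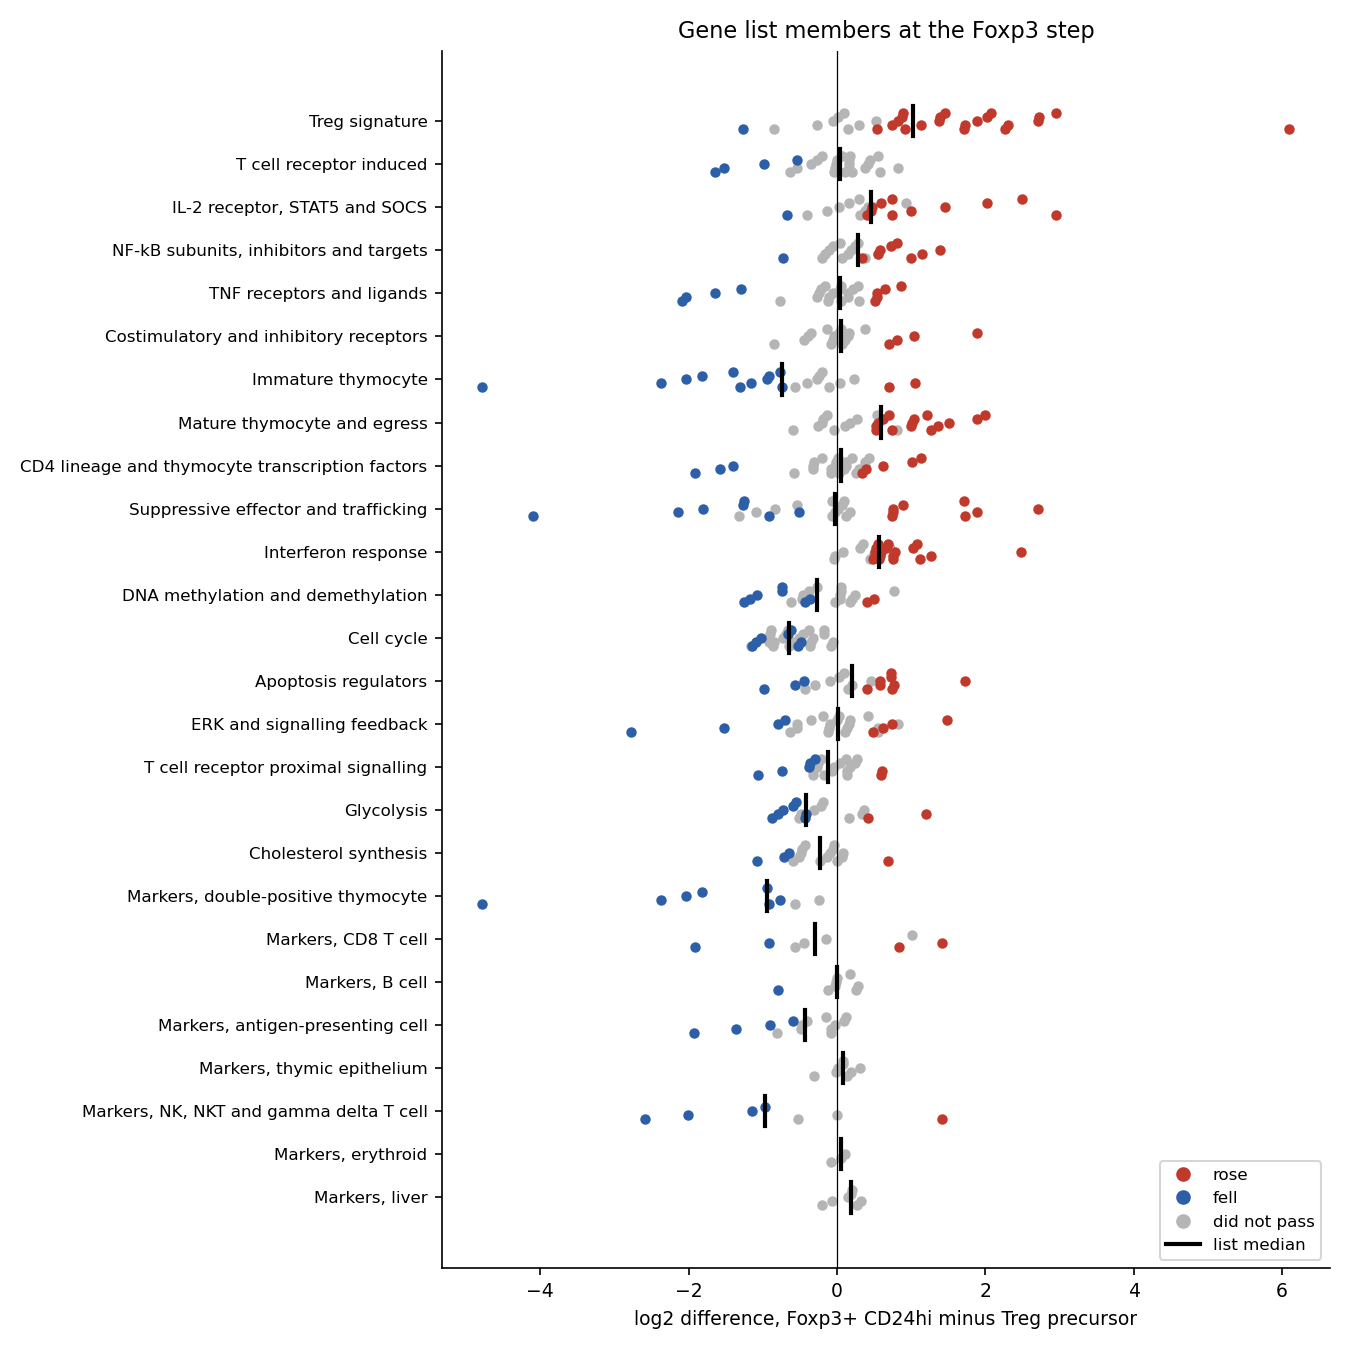
Log2 difference (Foxp3+ CD24hi minus Treg precursor, horizontal axis) of each measured gene in 18 gene lists and 8 marker lists, with points coloured by whether the gene rose, fell or did not pass, and a bar at the list median. Most Treg signature, mature thymocyte and interferon response genes lie to the right of 0, with medians of 1.02, 0.59 and 0.57, and most immature thymocyte and cell cycle genes to the left, with medians of -0.74 and -0.64.

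Foxp3 and Il2ra rose between the sorted groups, and Cd24a fell. Foxp3 read 4.14, 3.97 and 3.80 in the precursor arrays and 10.19, 10.07 and 9.96 in the Foxp3+ CD24hi arrays. The groups were far apart, and the difference of 6.10 ± 0.17 (SE, n = 3 and 3, adjusted p = 2.62e-18) was the largest rise of all genes on this scale, with the precursors in the dim range. Foxp3 then stayed level at 10.07 ± 0.12 (SD, n = 3) in Foxp3+ CD24int cells and 9.90 ± 0.07 in Foxp3+ CD24lo cells. Il2ra, which encodes CD25, read 7.93, 8.06 and 8.48 in precursors and 10.10, 10.43 and 10.02 in Foxp3+ CD24hi cells. It rose by 2.02 ± 0.20 (adjusted p = 1.03e-07) at the Foxp3 step, after a difference of 3.74 at the step before. Cd24a, the transcript of CD24, read 11.50, 11.48 and 12.23 in precursors and 9.89, 10.26 and 10.88 in Foxp3+ CD24hi cells. The arrays did not overlap, so the group sorted for high CD24 held less Cd24a transcript than the precursors, by 1.40 ± 0.42 (adjusted p = 0.0236). That call was lost without Foxp3+ CD24hi replicate 1 (adjusted p = 0.12), without Foxp3+ CD24hi replicate 2 (0.0762) or without precursor replicate 3 (0.12). It was also lost with the mean of all probe sets (-1.42, adjusted p = 0.0525 in limma). Cd4, the coreceptor of the lineage, read 9.00, 8.60 and 8.99 against 8.54, 8.46 and 8.64 and did not pass (-0.32 ± 0.16, adjusted p = 0.201).

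**Figure D2:**
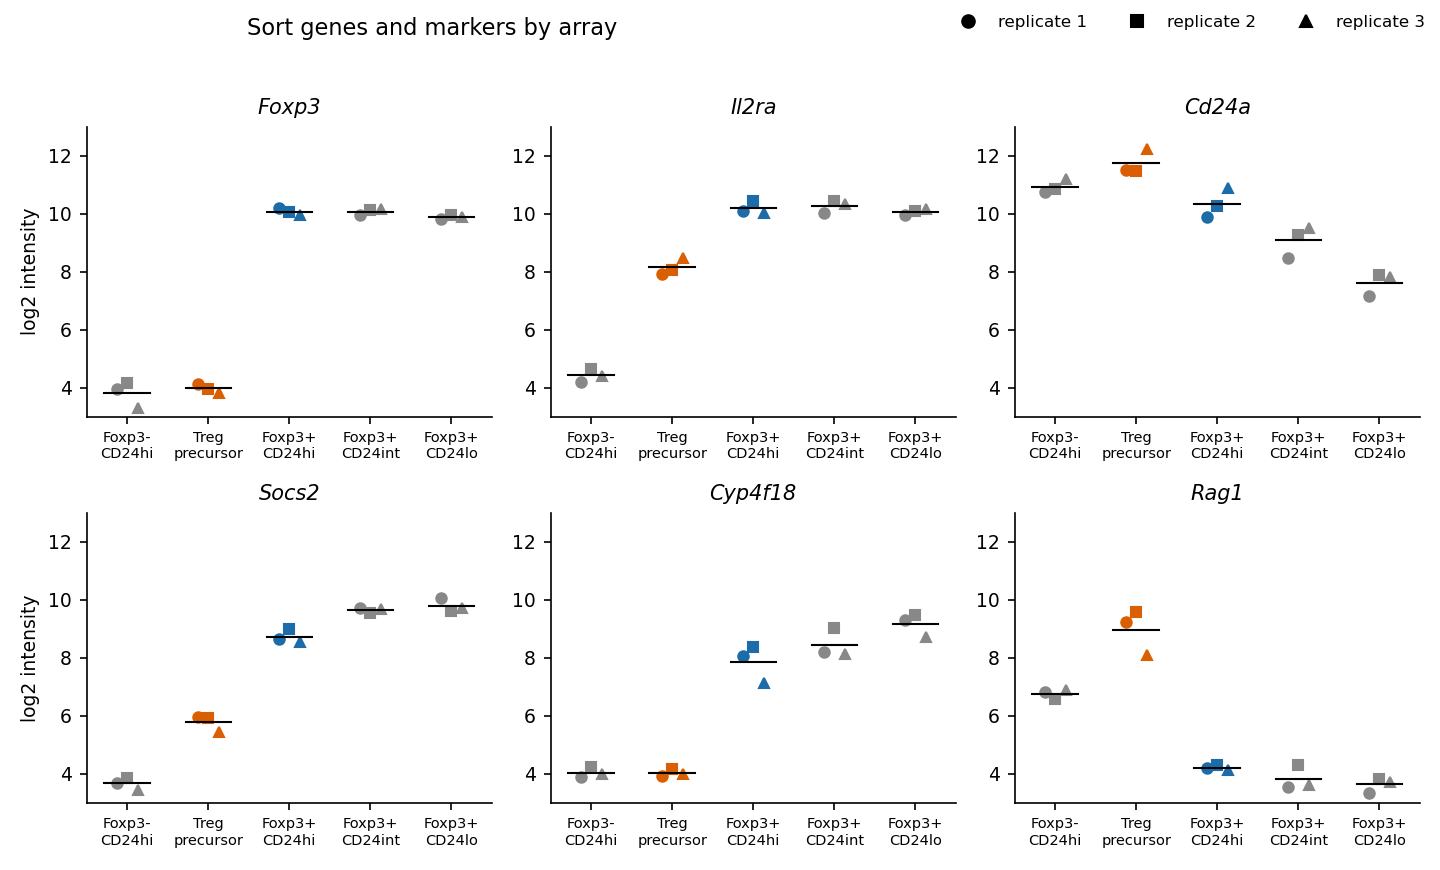
Log2 intensity (vertical axis) of Foxp3, Il2ra, Cd24a, Socs2, Cyp4f18 and Rag1 in each array of 5 thymocyte groups along the horizontal axis, with symbols for replicate numbers and bars for group means. Foxp3 and Cyp4f18 sit near 4 in precursors and at 7.15 or above in every Foxp3+ CD24hi array, while Rag1 falls from 8.09 or above to 4.29 or below.

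The Treg signature, a list of 30 measured genes that mark Tregs, rose broadly. At the Foxp3 step 21 of 30 rose, where 6.77% of all genes did, and 1 fell, with a median difference of 1.02 against 0.02 over all genes. Foxp3, whose GFP signal was used in the sort, and Socs2, given as a marker of this step, are among the 21. Their rises are therefore no independent result. The same 30 genes had already differed at the step before, where 23 were higher in precursors than in Foxp3- CD24hi cells (5.08% of all genes were) and 2 were lower (4.03%). Il2ra, which encodes the CD25 of the precursor gate, is among the 23. In lymph node, all 30 were higher in Tregs than in naive cells (8.01% of all genes were), and 0 were lower (4.35%), also at an unadjusted p under 0.05 in limma. The list was written from general knowledge with earlier results of these data known, so its counts are no independent support. The members fell into 3 patterns over these steps, and the genes that stand for each were chosen after their values were seen, apart from those named by rule.

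Some members were not higher in precursors than in Foxp3- CD24hi cells past the threshold and rose at the Foxp3 step. Cyp4f18, a cytochrome P450 enzyme that is not in the list but was given as a marker of this step, read 3.93, 4.15 and 3.98 in precursors and 8.07, 8.37 and 7.15 in Foxp3+ CD24hi cells. It rose by 3.84 ± 0.25 (adjusted p = 1.19e-10) from the dim range, against a difference of -0.02 at the step before. Its level was 8.46 ± 0.50 (SD, n = 3) in CD24int and 9.16 ± 0.40 in CD24lo Foxp3+ cells and 10.37 ± 0.25 in lymph node Tregs, and it stayed between 4.00 and 4.04 in the 3 Foxp3- thymocyte groups. Gpr83, a G protein-coupled receptor of Tregs, read 9.21, 9.14 and 9.01 and then 11.95, 11.89 and 11.69. It rose by 2.72 ± 0.20 (adjusted p = 1.11e-09) after being lower in precursors than in Foxp3- CD24hi cells (-0.72). Izumo1r, a folate receptor family member also called FR4, showed the same order, with differences of -0.99 at the step before and 1.38 ± 0.16 at the Foxp3 step (adjusted p = 1.44e-06). Entpd1, the ectonucleotidase CD39, moved from 4.09, 4.03 and 4.26 to 5.13, 5.26 and 4.66, a rise of 0.89 ± 0.18 (adjusted p = 0.00103) after a difference of 0.11.

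A larger set changed at both steps. Socs2, a feedback inhibitor of cytokine receptors, read 5.95, 5.94 and 5.45 in precursors and 8.64, 9.01 and 8.53 in Foxp3+ CD24hi cells, a rise of 2.95 ± 0.22 (7.73-fold, adjusted p = 1.01e-09) on top of 2.11 at the step before. Itgb8, an integrin subunit that helps to activate TGF-beta, read 5.62, 4.99 and 5.62 and then 8.44, 7.81 and 8.11. It rose by 2.71 ± 0.18 (adjusted p = 1.28e-10) after 2.87. Both genes were higher in every Foxp3+ CD24hi array than in any precursor array. Nrp1, the receptor neuropilin 1, rose by 2.30 ± 0.23 after 2.72, and Plagl1, a zinc finger transcription factor, by 2.26 ± 0.23 after 3.97. Ctla4, an inhibitory receptor that binds CD80 and CD86, read 9.21, 9.57 and 8.81 and then 11.27, 11.61 and 10.37, a rise of 1.89 ± 0.32 (adjusted p = 0.000129) after 2.96. Ecm1, an extracellular matrix protein, rose by 2.08 ± 0.13 (adjusted p = 1.19e-10) after 0.90.

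Another set was high in precursors and did not pass at the Foxp3 step. Ikzf2, which encodes the transcription factor Helios, read 12.54, 12.24 and 12.32 in precursors and 12.85, 12.62 and 12.53 in Foxp3+ CD24hi cells. The arrays overlapped (0.30 ± 0.17, adjusted p = 0.281), whereas precursors had stood 2.91 above Foxp3- CD24hi cells. Tnfrsf4 (OX40) differed by 0.16 ± 0.18 after 2.02 at the step before, and Tnfrsf9 (4-1BB) by -0.26 ± 0.27 after 2.84, both receptors of the TNF family. Penk, an opioid precursor gene, differed by 0.53 ± 0.24 (adjusted p = 0.156) after 4.29. Icos, a costimulatory receptor, read 10.23, 10.24 and 9.07 against 9.62, 9.14 and 8.22 and did not pass (-0.85 ± 0.32, adjusted p = 0.0766), but was lower within every pair of same-numbered arrays and passed with the replicate block (adjusted p = 0.0065). Gzmb, the protease granzyme B, was the member that fell, from 6.56, 6.58 and 5.61 to 5.37, 5.10 and 4.47 (-1.27 ± 0.33, adjusted p = 0.00776). With the replicate block or the mean of all probe sets the list had 2 falls. The list had 0 falls without Foxp3+ CD24hi replicate 3 or against precursor replicate 3 alone, and 2 without Foxp3+ CD24hi replicate 1 or precursor replicate 3.

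**Figure D3:**
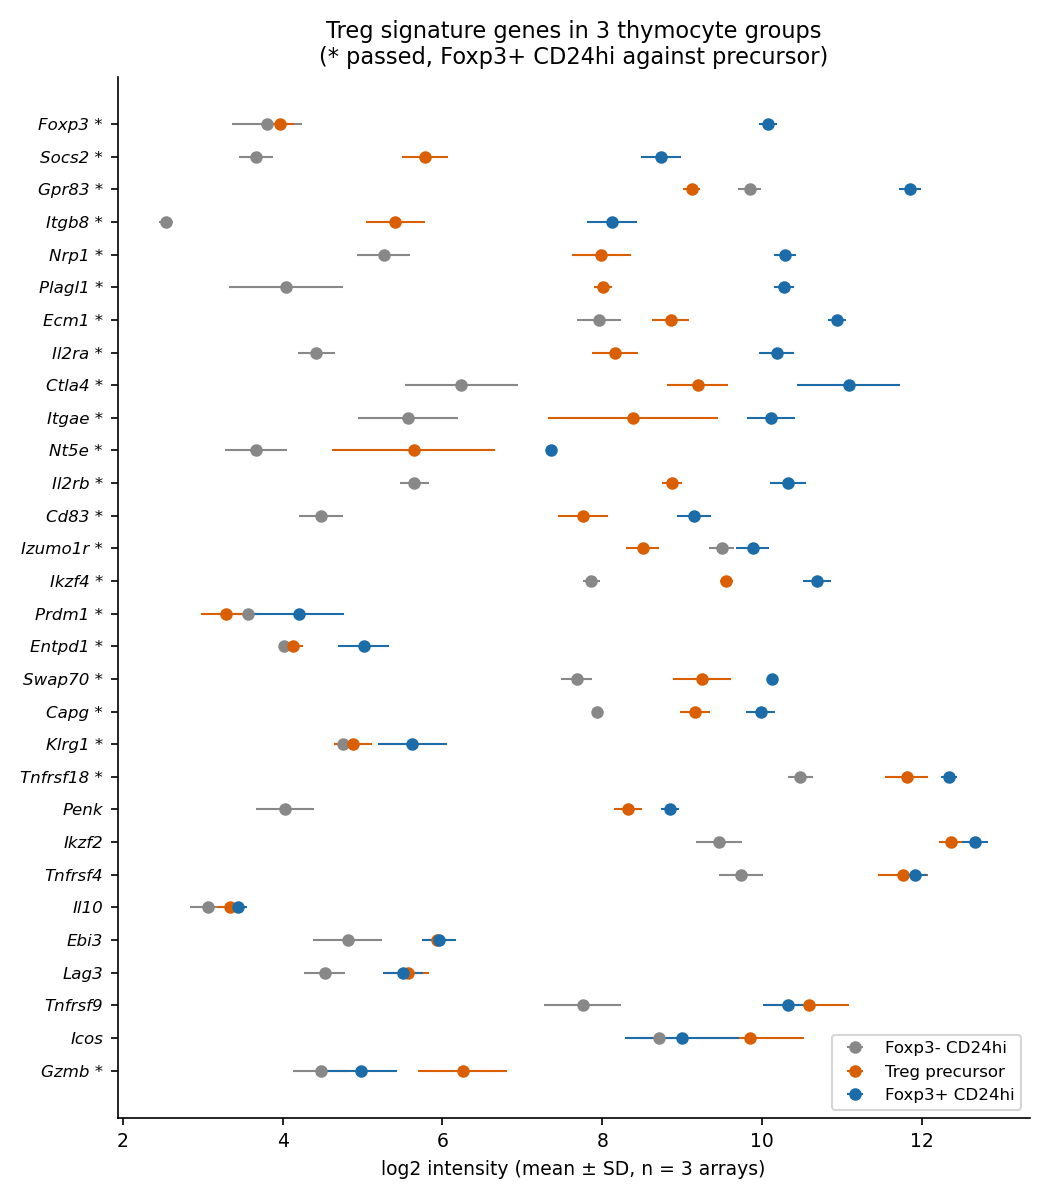
Mean log2 intensity ± SD (n = 3 arrays, horizontal axis) of the 30 Treg signature genes in Foxp3- CD24hi thymocytes, Treg precursors and Foxp3+ CD24hi thymocytes, ordered by the Foxp3 step, with an asterisk on genes that passed there. Foxp3 and Gpr83 move between precursor and Foxp3+ CD24hi cells, whereas Ikzf2 and Tnfrsf9 sit well to the right of Foxp3- CD24hi cells in both of those groups.

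Outside the list, the largest rises were of mixed function. Cavin1, a coat protein of caveolae, read 4.22, 4.32 and 4.66 in precursors and 7.05, 7.87 and 7.53 in Foxp3+ CD24hi cells, a rise of 3.08 ± 0.26 (adjusted p = 7.12e-09) from the dim range. It stayed at 7.42 ± 0.75 (SD, n = 3) and 7.31 ± 0.40 in CD24int and CD24lo Foxp3+ thymocytes but read 4.57 ± 0.08 in lymph node Tregs, where the difference from naive cells was 0.40 (adjusted p = 0.41). The other probe sets of Cavin1 differed by -0.01 and -0.06, so the rise rests on the brightest of 3. Phlpp1, a phosphatase that acts on the kinase Akt, read 6.60, 6.40 and 6.55 and then 9.07, 9.00 and 9.20. It rose by 2.57 ± 0.13 (adjusted p = 3.21e-12), with -0.19 at the step before and 2.57 between lymph node Tregs and naive cells. Etfbkmt, a mitochondrial lysine methyltransferase, rose by 2.77 ± 0.15 after 0.93, with no overlap between 6.92, 6.50 and 6.58 and 9.70, 9.22 and 9.40. Camk2n1, an inhibitor of calcium/calmodulin-dependent kinase II, rose by 2.44 ± 0.29, while its other probe set differed by 0.21. Gm30054, a predicted gene, rose by 2.66 ± 0.24.

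The IL-2 receptor and STAT5 list covers receptors, kinases, the STAT5 proteins and their usual targets and inhibitors. Of 21 measured genes 11 rose (6.77% of all genes did) and 1 fell (9.27%), with a median of 0.46. Socs2, given as a marker of this step, is among the 11. At the step before 7 were higher (5.08% of all genes) and 4 lower (4.03%) in precursors, with Il2ra, the gene of the CD25 gate, among the 7. At the conventional step 5 rose (2.26% of all genes) and 0 fell (2.75%), with 8 and 3 at an unadjusted p under 0.05 in limma. Among the receptors, Il2rb, the beta chain, rose from 8.78, 8.81 and 9.01 to 10.58, 10.21 and 10.18 (1.46 ± 0.18, adjusted p = 2.18e-06), and the difference at the conventional step was as large, at 1.47. Il7r, the IL-7 receptor, read 11.22, 11.11 and 9.13 against 10.86, 10.30 and 9.91 and did not pass (-0.13 ± 0.34). Precursor replicate 3 was low for Il7r, which was 1.23 higher in Foxp3+ CD24hi cells against that array alone (adjusted p = 0.00876) and 0.81 lower without it (-0.81, adjusted p = 0.0205).

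Both STAT5 genes rose. Stat5a read 9.93, 9.98 and 10.31 and then 10.88, 10.68 and 10.90 (0.75 ± 0.12), and Stat5b read 10.23, 10.15 and 10.19 and then 10.83, 10.75 and 10.78 (0.59 ± 0.09, adjusted p = 1.96e-05). In Stat5b the precursors had not differed from Foxp3- CD24hi cells past the threshold (-0.18). Of the targets, Pim1, a survival kinase, read 8.50, 8.65 and 8.30 in precursors and 11.03, 11.04 and 10.88 in Foxp3+ CD24hi cells, with no overlap. It rose by 2.50 ± 0.13 (adjusted p = 4.15e-12) after 0.13 at the step before. Cish, an inhibitor of cytokine signalling, rose by 1.00 ± 0.13 after 2.09, and Bcl2, which blocks cell death, by 0.74 ± 0.14 (adjusted p = 0.000558) after -0.74. Pim2, a kinase related to Pim1, was the member that fell (-0.67 ± 0.12). There were 2 falls without Foxp3+ CD24hi replicate 3 or precursor replicate 3. The same count came with the replicate block, the mean of all probe sets, quantile normalisation or 16 added before log2, and without dim genes. Il2ra, Socs2 and Pim1 are the list members named by rule beside Il7r, and the others here were chosen after their values were seen.

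NF-kB is the transcription factor family that links antigen receptor and TNF receptor signals to gene expression. Of 21 measured subunits, inhibitors and targets 8 rose (6.77% of all genes did) and 1 fell (9.27%), with a median of 0.29. Without Foxp3+ CD24hi replicate 3 there were 2 falls. At the step before 9 were higher (5.08% of all genes) and 2 lower (4.03%) in precursors. The subunits themselves did not pass: Rel differed by 0.04, Rela by 0.25, Relb by -0.16 and Nfkb2 by 0.14, of which Rela passed with the replicate block (adjusted p = 0.0166). The genes that rose were targets and regulators. Icam1, an adhesion molecule, read 7.54, 7.78 and 7.69 and then 8.48, 8.49 and 8.45 (0.81 ± 0.10, adjusted p = 1.3e-06). Birc3, an inhibitor of apoptosis that acts in TNF receptor signalling, read 10.59, 10.58 and 10.56 and then 11.46, 11.28 and 11.18 (0.73 ± 0.10, adjusted p = 6.09e-06). Both groups were tight and did not overlap. Cd83 rose by 1.39 ± 0.20 after 3.28 at the step before. Nfkbia, the inhibitor IkB-alpha, differed by 0.18 ± 0.11 (adjusted p = 0.303).

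Of 25 TNF family receptors and ligands 5 rose (6.77% of all genes did) and 4 fell (9.27%), with a median of 0.04. The 4 that fell encode ligands. Tnfsf4, the ligand of OX40, read 7.32, 7.10 and 7.84 in precursors and 5.24, 5.30 and 5.62 in Foxp3+ CD24hi cells (-2.03 ± 0.20, adjusted p = 1.09e-07). Tnfsf14 (LIGHT) read 5.70, 5.91 and 6.45 and then 3.77, 3.57 and 4.44 (-2.09 ± 0.23, adjusted p = 3.79e-07), and Tnfsf11 (RANKL) read 8.79, 8.98 and 8.62 and then 6.95, 6.97 and 7.53 (-1.65 ± 0.18, adjusted p = 5.31e-07). The groups did not overlap for any of these 3 ligands. Tnfsf4 and Tnfsf14 had been higher in precursors than in Foxp3- CD24hi cells, by 2.07 and 1.91. Fasl also fell (-1.29 ± 0.40). Other ligands went the opposite way: Tnfsf10 (TRAIL), Ltb and Lta rose by 0.86, 0.53 and 0.51. Of the receptors, Tnfrsf18 (GITR) rose by 0.54 ± 0.14 and Tnfrsf25 by 0.64. Cd27 differed by 0.29 ± 0.11 (adjusted p = 0.0686) and passed with the replicate block (adjusted p = 0.0131). With precursor replicate 3 as the only precursor array, 3 of the 25 rose and 3 fell.

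Of 19 costimulatory and inhibitory receptors and ligands 4 rose (6.77% of all genes did) and 0 fell (9.27%), with a median of 0.05. With the mean of all probe sets 1 fell. At an unadjusted p under 0.05 in limma 5 were higher and 1 lower, and 1 or 2 fell in the fits that left out Foxp3+ CD24hi replicate 1 or 3 or precursor replicate 1 or 3, with 1 also with the replicate block and against precursor replicate 3 alone. Slamf1, a self-binding receptor of the SLAM family, read 8.88, 8.87 and 8.76 and then 9.96, 9.85 and 9.80 (1.04 ± 0.10, adjusted p = 3.87e-08), with -0.36 at the step before. Cd80, a ligand of CD28 and CTLA-4, rose by 0.81, Cd96 by 0.70 ± 0.14, and Ctla4 as given above. Cd28 read 11.41, 11.36 and 10.99 against 11.15, 11.21 and 10.99 and did not pass (-0.14 ± 0.12). The call for Cd96 was lost with precursor replicate 3 as the only precursor array (0.40, adjusted p = 0.203).

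Of 26 genes that respond to T cell receptor signals 0 rose and 4 fell at the Foxp3 step, with a median of 0.04. Over all genes 6.77% rose and 9.27% fell, 16.0% in either direction. At the step before 12 had been higher (5.08% of all genes) and 2 lower (4.03%) in precursors than in Foxp3- CD24hi cells. At the Foxp3 step 4 were higher and 5 lower at an unadjusted p under 0.05 in limma, and the replicate block made 3 of the 26 pass as higher. Without Foxp3+ CD24hi replicate 1, precursor replicate 2, precursor replicate 3 or dim genes, 1 passed as higher. Against precursor replicate 3 alone 2 fell. Bcl2l11, which encodes the pro-apoptotic protein Bim, read 10.53, 10.54 and 10.99 and then 9.58, 9.58 and 9.95 (-0.98 ± 0.16, adjusted p = 0.000111). Nr4a1, an orphan nuclear receptor induced by antigen receptor signals, read 11.98, 12.12 and 12.22 and then 11.49, 11.56 and 11.64 (-0.54 ± 0.15, adjusted p = 0.0155). Spry2, an inhibitor of receptor tyrosine kinase signalling, fell by 1.52 ± 0.34, and Tnfsf11 was the other that fell. Dusp4, a MAP kinase phosphatase, differed by 0.83 ± 0.33 (adjusted p = 0.0947) after 3.75 at the step before, and passed with the replicate block (adjusted p = 0.0098). Fos, an immediate early gene, read 11.85, 12.84 and 12.57 against 12.41, 13.40 and 13.20, with overlap (0.58 ± 0.36, adjusted p = 0.333). Within every pair of same-numbered arrays Fos was higher in Foxp3+ CD24hi cells.

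Among 22 proximal T cell receptor signalling genes 2 rose (6.77% of all genes did) and 5 fell (9.27%), with a median of -0.12. At the step before, 0 were higher (5.08% of all genes) and 11 lower (4.03%) in precursors, or 0 and 17 at an unadjusted p under 0.05 in limma. Zap70, the kinase that binds the receptor's CD3 chains, read 10.66, 10.63 and 10.82 and then 10.00, 9.78 and 10.12 (-0.74 ± 0.11, adjusted p = 3.37e-05), and Trat1, an adaptor of the receptor complex, fell by 1.06 ± 0.16. Cd247 and Cd3g, chains of the receptor complex, and Lat, a scaffold protein, fell by 0.29, 0.38 and 0.37. Prkcq, which encodes protein kinase C theta, rose by 0.60 ± 0.12 and Txk, a Tec family kinase, by 0.61. Ptprc (CD45) differed by -0.04. Leaving out Foxp3+ CD24hi replicate 1 or precursor replicate 2 left 2 falls, leaving out Foxp3+ CD24hi replicate 2 or precursor replicate 1 left 3, and precursor replicate 3 as the only precursor array left 2. In that last fit, and without Foxp3+ CD24hi replicate 2, 1 gene rose. Of 26 genes of ERK and other feedback 4 rose and 4 fell (7 and 7 with the replicate block, and 3 and 2 against precursor replicate 3 alone), among them Cblb, a ubiquitin ligase that dampens T cell activation, which rose by 0.63 ± 0.10, and Dusp10, which fell by 0.80 ± 0.12.

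Immature thymocyte genes fell and genes of mature thymocytes rose. Of 21 immature genes 11 fell (9.27% of all genes did) and 2 rose (6.77%), with a median of -0.74. Rag1, given as a marker of this step, is among the 11. Rag1, a subunit of the recombinase that assembles T cell receptor genes, read 9.24, 9.59 and 8.09 in precursors and 4.18, 4.29 and 4.12 in Foxp3+ CD24hi cells. The groups were far apart, and the fall of 4.78 ± 0.25 (adjusted p = 4.15e-12), into the dim range, was the largest of all genes on this scale. Precursors had also read 2.21 above Foxp3- CD24hi cells in Rag1, which stood at 6.77 ± 0.17 (SD, n = 3) there. Dntt, the terminal transferase that adds bases at receptor gene joints, read 10.37, 9.65 and 8.26 and then 7.37, 7.01 and 6.79 (-2.37 ± 0.31, adjusted p = 5.85e-06), and Ptcra, the pre-T alpha chain, read 7.60, 7.47 and 5.86 and then 5.38, 4.93 and 4.52 (-2.04 ± 0.32, adjusted p = 5.2e-05). Precursor replicate 3 was the lowest of its group for all 3 of these genes. Against that array alone Rag1 fell by 3.90 (adjusted p = 3.26e-09) and Dntt by 1.20 (adjusted p = 0.00549), whereas Ptcra did not pass (-0.92, adjusted p = 0.0752). Ccr9, a chemokine receptor of developing thymocytes, fell by 1.31 ± 0.16 (adjusted p = 1.84e-06), and Satb1 differed by -0.21 ± 0.12. Cxcr4 and Myb were the members that rose, by 1.05 and 0.70. Of the rises 1 was left without Foxp3+ CD24hi replicate 2 or precursor replicate 3, or with the spread taken from the 6 arrays alone.

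All 9 measured markers of double-positive thymocytes, the stage before CD4 single-positive cells, belong to that immature list, and 7 of them fell (4 against precursor replicate 3 alone). Over all genes 9.27% fell. The summed linear intensity of the 9 markers ran from 1244.1 to 3018.4 in precursor arrays and from 516.3 to 542.1 in Foxp3+ CD24hi arrays. Cd8a, which double-positive cells carry and CD4 single-positive cells lose, read 5.78, 6.13 and 6.85 against 5.52, 5.59 and 5.98 and did not pass (-0.56 ± 0.23, adjusted p = 0.112). It passed as lower with the mean of all probe sets (-0.57, adjusted p = 0.0372 in limma) and without precursor replicate 1 (-0.80, adjusted p = 0.0261). Against precursor replicate 3 alone Cd8a differed by -1.16. Cd8b1 fell by 0.92. The part of carried-over double-positive cells in the falls was not tested.

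Of 26 genes of mature thymocytes and egress 15 rose (6.77% of all genes did) and 0 fell (9.27%), with a median of 0.59. At an unadjusted p under 0.05 in limma 16 were higher and 3 lower. There was 1 fall without precursor replicate 3 and 1 with the replicate block. The same count came with the mean of all probe sets, without dim genes, with 16 added before log2 and with an intensity trend. At the step before 1 was higher (5.08% of all genes) and 5 were lower (4.03%) in precursors. Klf3, a transcription factor of the Kruppel-like family, read 9.11, 8.78 and 8.03 and then 10.73, 10.49 and 10.38 (1.90 ± 0.20, adjusted p = 2.13e-07). S1pr1, the receptor that guides mature thymocytes out along sphingosine 1-phosphate, read 7.50, 7.12 and 6.62 and then 8.58, 8.69 and 8.50 (1.51 ± 0.23, adjusted p = 4.38e-05). Itgb7, an integrin subunit of gut-homing cells, read 9.83, 9.80 and 9.62 and then 11.13, 11.06 and 10.87 (1.27 ± 0.11, adjusted p = 1.11e-08). None of these 3 genes overlapped between the groups. Ms4a4b rose by 1.04 ± 0.11, and Foxo1, a transcription factor that drives homing receptor genes, by 1.01 ± 0.11. Klf2, which drives S1pr1, read 10.77, 11.65 and 10.44 against 11.80, 12.19 and 11.31 and did not pass (0.82 ± 0.32, adjusted p = 0.0876). It passed with the replicate block (adjusted p = 8.64e-05). Ccr7, a medullary homing receptor, differed by 0.17.

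Interferon response genes rose together. Many of these genes carry a DNA element called the interferon-stimulated response element near their start. Of 27 measured 18 rose (6.77% of all genes did) and 0 fell (9.27%), with a median of 0.57. At an unadjusted p under 0.05 in limma 24 were higher and 0 lower. At the step before 0 were higher (5.08% of all genes) and 12 lower (4.03%) in precursors, or 1 and 16 unadjusted. At the conventional step 17 rose (2.26% of all genes) and 0 fell (2.75%), or 22 and 0 unadjusted, with a median of 0.55. The list's mean log2 intensity was 8.15, 8.13 and 8.01 in the precursor arrays and 8.79, 8.76 and 8.71 in the Foxp3+ CD24hi arrays, so the groups did not overlap. Promoters of 20 of the 27 genes were in the RefSeq table used, which covers the reference genome rather than BALB/c. The element was searched as GAAA, any 2 bases and GAAA again, on either strand and with overlaps allowed, in the 250 bases before the start. It was found for 11 of the 20 genes (55.0%), against 3.46% of 27025 genes with a promoter. Of the 11 genes with a match 6 rose, with a median of 0.52, and of the 9 without a match 7 rose, with a median of 0.57. These are few genes, and a link between the match and a rise was not tested. A match is a description of the letters and not a bound site. The STAT5 element, searched as TTC, any 3 bases and GAA, was found for 3 of 16 genes of the IL-2 and STAT5 list with a promoter (Bcl6, Il7r and Socs3), 18.75% against 8.13% of genes. None of these 3 genes passed at the step, although Bcl6 and Socs3 passed with the replicate block (adjusted p = 0.0406 and 0.00365), as lower and higher. The same letters were found for 5 of 20 interferon list genes (25.0%). These 4 promoters are shown as examples of the 6 genes that rose and hold the element, the others being Ifit1 and Trim30a. Each is printed on the plus strand of build GRCm38.p6, with the element in capitals. It begins at -45 and -39 from the start in Gbp3 (chr3:142559794-142560043, overlapping matches, from the promoter with more matches of the 2 listed), -156 and -122 in Ifit3 (chr19:34583279-34583528), -34 in Igtp (chr11:58199306-58199555) and -222 in Stat2 (chr10:128270248-128270497).
Gbp3: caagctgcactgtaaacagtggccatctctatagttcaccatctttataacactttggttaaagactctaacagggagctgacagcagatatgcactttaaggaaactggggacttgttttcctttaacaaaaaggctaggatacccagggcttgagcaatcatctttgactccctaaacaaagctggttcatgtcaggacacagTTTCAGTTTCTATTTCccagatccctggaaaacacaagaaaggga
Ifit3: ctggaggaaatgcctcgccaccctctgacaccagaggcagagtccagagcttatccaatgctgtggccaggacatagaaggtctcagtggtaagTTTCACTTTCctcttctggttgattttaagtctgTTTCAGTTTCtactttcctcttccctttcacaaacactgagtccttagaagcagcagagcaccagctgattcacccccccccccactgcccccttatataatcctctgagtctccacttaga
Igtp: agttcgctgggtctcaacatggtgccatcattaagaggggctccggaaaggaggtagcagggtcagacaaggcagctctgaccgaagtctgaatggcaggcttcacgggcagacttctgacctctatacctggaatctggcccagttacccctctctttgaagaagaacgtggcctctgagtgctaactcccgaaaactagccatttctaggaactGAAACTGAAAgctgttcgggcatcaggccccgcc
Stat2: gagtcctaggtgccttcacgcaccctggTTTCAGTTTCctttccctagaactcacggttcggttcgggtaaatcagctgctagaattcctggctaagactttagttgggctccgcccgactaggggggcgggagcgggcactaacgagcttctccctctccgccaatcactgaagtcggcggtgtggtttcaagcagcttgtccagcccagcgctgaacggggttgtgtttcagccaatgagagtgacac

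Of the genes with these promoters, Gbp3, an interferon-induced GTPase, read 7.07, 6.98 and 6.69 in precursors and 9.48, 9.63 and 9.08 in Foxp3+ CD24hi cells. It rose by 2.48 ± 0.16 (5.58-fold, adjusted p = 1.28e-10), far above the list median, and the rise exceeded that at the conventional step (0.24) by 2.24 (adjusted p = 5.6e-07). Its level went on to 10.12 ± 0.18 (SD, n = 3), 10.60 ± 0.02 and 11.20 ± 0.12 in CD24int, CD24lo and lymph node Foxp3+ cells. Igtp, an immunity-related GTPase, read 10.76, 10.75 and 10.70 and then 11.51, 11.63 and 11.34 (0.76 ± 0.09, adjusted p = 2.13e-06). Ifit3, an antiviral protein, rose by 1.02 ± 0.17 and by 1.17 at the conventional step, and Stat2, which carries the interferon signal, by 0.76 ± 0.19. Without a listed promoter, Usp18, which limits interferon receptor signalling, read 8.17, 8.52 and 8.20 and then 9.37, 9.43 and 9.35 (1.08 ± 0.15, adjusted p = 1.07e-05). Rtp4 differed by 0.44 ± 0.17 (adjusted p = 0.0833) and passed with the replicate block (adjusted p = 0.00183). Probe sets of multigene families such as Gbp, Gimap, Ms4a, Klra and Trgv may take signal from near-identical members, which was not tested.

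Lineage transcription factors moved in both directions, with 5 of 28 up (6.77% of all genes were), 3 down (9.27%) and a median of 0.06. Ikzf4, which encodes Eos, a partner of Foxp3, read 9.58, 9.46 and 9.62 and then 10.84, 10.50 and 10.71 (1.13 ± 0.12, adjusted p = 2.13e-07), after 1.69 at the step before. Runx3, a factor of the CD8 and cytotoxic lineages, read 8.31, 8.33 and 8.42 and then 6.41, 6.80 and 6.12 (-1.91 ± 0.16, adjusted p = 7.12e-09). Its level was higher again at 7.36 ± 0.39 (SD, n = 3) and 7.79 ± 0.14 in CD24int and CD24lo Foxp3+ cells, and its other, dimmer probe set differed by -0.15. Id2, an inhibitor of E proteins found in innate-like lymphocytes, fell from 10.60, 10.85 and 10.02 to 8.90, 8.78 and 9.07 (-1.57 ± 0.18, adjusted p = 6.3e-07). Gata3, a factor of the CD4 lineage, rose by 0.62 ± 0.10, and Maf fell by 1.41 ± 0.43 (adjusted p = 0.0259) with overlap, from 9.37, 9.71 and 7.12 to 7.56, 7.55 and 6.86. Ets1, a broad T cell factor, differed by 0.12. Without Foxp3+ CD24hi replicate 2 or precursor replicate 2, or with the spread taken from the 6 arrays alone, 3 factors rose, and 5 fell with the replicate block.

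Of the 12 largest falls, Cxcr6, Klrd1 and Trgv4 are genes known from innate-like T cells, the natural killer T, gamma delta T and related cells that develop in the same thymus. Xcl1, another of the 12, is drawn with them in the figure. Its precursor order went the other way, highest in replicate 3, and its values are given below. Cxcr6, a chemokine receptor of such cells, read 8.81, 9.32 and 6.77 in precursors and 4.40, 4.15 and 4.05 in Foxp3+ CD24hi cells, a fall of 4.10 ± 0.50 (adjusted p = 1.81e-06) into the dim range. Zbtb16, which encodes PLZF, the transcription factor of natural killer T cells, read 7.46, 7.79 and 5.65 and then 5.36, 4.85 and 4.66 (-2.01 ± 0.39, adjusted p = 0.000626). Klrd1, the natural killer receptor subunit CD94, read 5.75, 6.26 and 4.92 and then 3.87, 2.83 and 2.49 (-2.58 ± 0.39, adjusted p = 3.44e-05). For Cxcr6, Zbtb16 and Klrd1 precursor replicates 1 and 2 were highest and replicate 3 was intermediate, still above every Foxp3+ CD24hi array. App, the amyloid precursor protein gene, fell by 2.68 ± 0.43 from 7.30, 7.53 and 4.70, and Trgv4, a gamma chain variable segment, by 2.60 ± 0.41 from 9.46, 9.70 and 7.57. Klra5, a receptor of natural killer cells, fell by 2.06 ± 0.47, and Ifng, which encodes interferon gamma, by 1.60 ± 0.44 (adjusted p = 0.0125). The Ifng call was lost without Foxp3+ CD24hi replicate 3 (adjusted p = 0.0565) or precursor replicate 2 (0.0814).

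Against precursor replicate 3 alone, Cxcr6 (-2.57, adjusted p = 0.00411) and Klrd1 (-1.86, 0.0231) still fell, while App (-0.87, adjusted p = 0.10), Trgv4 (-1.26, 0.0769), Zbtb16 (-0.69, 0.372), Klra5 (-1.29, 0.25) and Ifng (-0.93, 0.435) did not pass. In the marker list of natural killer, natural killer T and gamma delta T cells, 4 of 7 fell and 1 rose, and against that array 1 fell. Over all genes 9.27% fell and 6.77% rose. The list's mean log2 intensity was 5.70, 5.89 and 5.04 in precursors and 4.94, 4.68 and 4.51 in Foxp3+ CD24hi cells. Eomes, a transcription factor of that list, was the member that rose, by 1.42 ± 0.18 (adjusted p = 4.17e-06), and Ncr1, which defines natural killer cells, read between 3.96 and 4.45 in all 6 arrays. The highest levels of Cxcr6 and Zbtb16 among the thymocyte groups were in Foxp3- CD24lo cells, at 9.87 ± 0.42 and 10.90 ± 0.28 (SD, n = 3). The part of innate-like cells within the precursor gate in these falls was not tested.

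**Figure D4:**
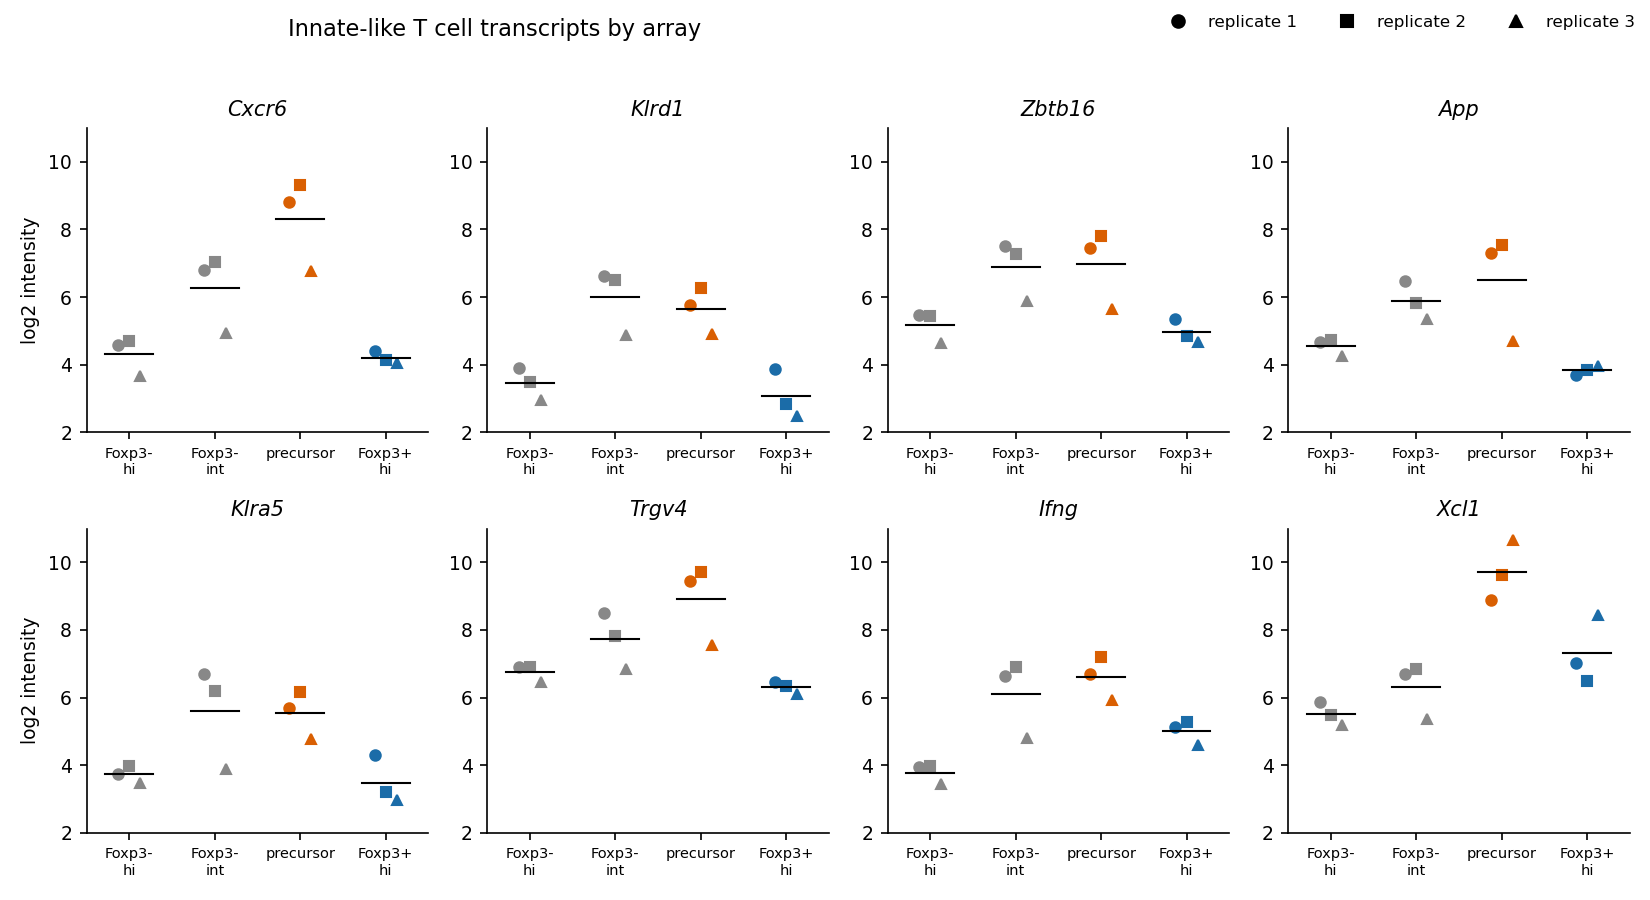
Log2 intensity (vertical axis) of Cxcr6, Klrd1, Zbtb16, App, Klra5, Trgv4, Ifng and Xcl1 in each array of Foxp3- CD24hi, Foxp3- CD24int, precursor and Foxp3+ CD24hi thymocytes (horizontal axis), with symbols for replicate numbers and bars for group means. Precursor replicate 3 lies below precursor replicates 1 and 2 for all but Xcl1, which is highest there at 10.66.

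Other large falls differed in the order of the precursor arrays. Xcl1, a chemokine that attracts dendritic cells, read 8.87, 9.62 and 10.66 and then 7.03, 6.49 and 8.45 (-2.39 ± 0.46, adjusted p = 0.000617), highest in replicate 3 of either group. Against precursor replicate 3 alone Xcl1 differed by -3.33. Pou2af1, a coactivator of Oct proteins, read 6.98, 6.83 and 7.29 and then 4.18, 3.96 and 4.54 (-2.81 ± 0.21, adjusted p = 1.73e-09), after 1.69 at the step before. Slc16a10, an aromatic amino acid transporter, read 7.57, 7.79 and 8.04 and then 5.22, 5.06 and 5.23 (-2.63 ± 0.17, adjusted p = 1.28e-10). The groups were apart in every array for these 3 genes. Chl1, a cell adhesion molecule, fell by 2.86 ± 0.26, Pde3b, a cyclic nucleotide phosphodiesterase, by 2.77 ± 0.34, Chdh, choline dehydrogenase, by 2.57 ± 0.32, and Ctla2a, a cysteine protease inhibitor (-2.45 ± 0.22). Precursor replicate 3 was the lowest of its group for Pde3b, Chdh and Chl1, as in the innate-like genes. Chl1, Chdh, Ctla2a and Slc16a10 also fell at the conventional step (-1.77, -2.16, -1.33 and -1.62). Pde3b was 4.82 lower in lymph node Tregs than in naive cells (-4.82).

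Genes of suppressive effector function and trafficking split. Of 27 measured 8 rose (6.77% of all genes did) and 7 fell (9.27%), with a median of -0.03. At the step before 17 had been higher (5.08% of all genes) and 1 lower (4.03%) in precursors. Besides Itgb8, Ctla4 and Entpd1 above, Itgae, the integrin CD103, rose from 8.88, 9.11 and 7.17 to 10.29, 10.29 and 9.76 (1.73 ± 0.42), and Nt5e, the ectonucleotidase CD73, from 6.37, 6.07 and 4.47 to 7.34, 7.34 and 7.40 (1.72 ± 0.41). Selplg, a ligand of selectins, rose by 0.75 ± 0.09 (adjusted p = 1.08e-06). The fallers besides Cxcr6 and Gzmb included Gzma, the protease granzyme A, at 8.91, 8.35 and 7.22 and then 6.61, 6.11 and 6.37 (-1.80 ± 0.36), and Lgals3, a galectin, at 9.15, 9.38 and 6.07 and then 6.18, 5.65 and 6.36. Lgals3 passed with overlap (-2.14 ± 0.55, adjusted p = 0.00737), since precursor replicate 3 lay within the Foxp3+ CD24hi arrays. Without precursor replicate 2 the list had 4 falls, and with replicate 3 as the only precursor array 2. Lgals1 differed by -0.07 and Il10, a suppressive cytokine, by 0.10.

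Of 29 measured cell cycle genes 0 rose (6.77% of all genes did) and 7 fell (9.27%), with a median of -0.64. At an unadjusted p under 0.05 in limma 0 were higher and 11 lower. The list's mean log2 intensity was 9.40, 8.32 and 8.10 in precursors and 8.59, 7.55 and 7.80 in Foxp3+ CD24hi cells, so replicate 1 was highest in either group and the groups overlapped. Within every pair of same-numbered arrays the mean was lower in Foxp3+ CD24hi cells. Stmn1, which destabilises microtubules, read 12.35, 12.07 and 11.96 and then 11.35, 10.77 and 11.20 (-1.02 ± 0.19, adjusted p = 0.000397). Mki67, the proliferation marker Ki-67, read 10.62, 8.57 and 7.90 against 9.97, 7.60 and 7.55 and did not pass (-0.66 ± 0.65). With the replicate number as a block 16 fell, with the spread of the 6 arrays alone 1, without Foxp3+ CD24hi replicate 2 there were 2 falls, without precursor replicate 1 there were 3, and with precursor replicate 3 as the only precursor array 1. Mcm2 and Mcm3, subunits of the replicative helicase, fell by 0.61 ± 0.14 and 0.66 ± 0.16, and both calls were lost without Foxp3+ CD24hi replicate 2 (adjusted p = 0.0514 and 0.0695).

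Of 23 genes that add, read or remove DNA methylation, 2 rose and 7 fell, with a median of -0.27. Idh2, the mitochondrial isocitrate dehydrogenase, read 8.56, 8.69 and 8.78 and then 7.56, 7.59 and 7.67 (-1.07 ± 0.15, adjusted p = 9.39e-06), and Gadd45b, a stress response gene tied to demethylation, read 9.20, 9.50 and 9.99 and then 7.94, 8.21 and 8.77 (-1.26 ± 0.21, adjusted p = 0.000139). Dnmt3b, a de novo methyltransferase, fell by 0.74 ± 0.13, and Uhrf1, which recruits the maintenance enzyme, by 1.18. Dnmt1, the maintenance methyltransferase, differed by -0.46 ± 0.22 (adjusted p = 0.186) and passed with the replicate block (adjusted p = 0.00503). Tet1, a demethylating dioxygenase, fell by 0.74, while Tet2 and Tet3 differed by -0.27 and 0.24. The list had 11 falls with the block and 4 with precursor replicate 3 as the only precursor array, and 1 rise was left in that fit and without either replicate 2.

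Of 17 glycolysis genes 7 fell (9.27% of all genes did) and 2 rose (6.77%), with a median of -0.41. With the spread taken from the 6 arrays alone 3 fell and 1 rose, and with quantile normalisation 1 rose. Pgk1, phosphoglycerate kinase, read 11.42, 11.59 and 11.83 and then 10.48, 10.74 and 10.99 (-0.88 ± 0.15, adjusted p = 0.000127), and Pgam1, phosphoglycerate mutase, fell by 0.79 ± 0.19. Slc2a3, the glucose transporter GLUT3, went the other way, from 9.66, 9.68 and 9.88 to 10.81, 11.21 and 10.82 (1.21 ± 0.12, adjusted p = 9.71e-08), with no overlap and after -0.92 at the step before. Ldha differed by -0.21 ± 0.11 (adjusted p = 0.226) and passed with the replicate block (0.0439). Without Foxp3+ CD24hi replicate 2 or precursor replicate 3 the list had 2 falls. A rise of 1 gene was left without either replicate 1, without precursor replicate 3 or against it alone. In cholesterol synthesis 1 of 17 rose (6.77% of all genes did) and 3 fell (9.27%), with a median of -0.23. With the spread taken from the 6 arrays alone 0 rose. Cyp51, lanosterol demethylase, fell by 1.08 ± 0.21, and Lss, lanosterol synthase, by 0.65 ± 0.16. The Lss call rests on its brightest probe set, since the others differed by 0.13 and -0.12 and the mean of all did not pass (-0.21, adjusted p = 0.133). The list had 6 falls with the replicate block, 6 without Foxp3+ CD24hi replicate 3 and 5 against precursor replicate 3 alone. The member that rose, Sc5d (0.69 ± 0.21, adjusted p = 0.0251), did not pass without Foxp3+ CD24hi replicate 2 or 3, without precursor replicate 1 or 2, or against precursor replicate 3 alone.

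Of 19 apoptosis regulators 8 rose (6.77% of all genes did) and 3 fell (9.27%), with a median of 0.21. Both sides of the balance moved. Casp8, an initiator protease, read 10.13, 9.84 and 9.91 and then 10.64, 10.92 and 10.62 (0.77 ± 0.11, adjusted p = 2.49e-05), and the pro-apoptotic genes Pmaip1 (Noxa) and Bbc3 (Puma) rose by 1.73 ± 0.38 and 0.73 ± 0.20. Survival genes that rose were Bcl2, Birc3, Birc2 (0.58), Cflar (0.58) and Mcl1 (0.40). Bcl2l11, given above, Bcl2l1 (-0.44) and Bak1 (-0.56) fell, of which Bcl2l1 protects cells and the others promote death. Xiap differed by 0.21. Without Foxp3+ CD24hi replicate 2 or precursor replicate 3, 1 of the 3 falls was left.

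Markers of other cell types gave these values, where over all genes 6.77% rose and 9.27% fell. Of 14 markers of antigen-presenting cells 0 rose and 4 fell (0 and 7 at an unadjusted p under 0.05 in limma). With the spread taken from the 6 arrays alone 1 fell. Summed linear intensities were 714.8 to 1406.6 in precursors and 490.2 to 781.7 in Foxp3+ CD24hi cells. Ccr2, Tyrobp, H2-Ab1 and Cd74 were the members that fell. Ccr2 read 7.91, 8.15 and 5.31 against 5.50, 5.49 and 4.62 (-1.92 ± 0.47, adjusted p = 0.00526), with overlap, and against precursor replicate 3 alone it differed by -0.11. Leaving out Foxp3+ CD24hi replicate 3 or precursor replicate 1 left 1 of the 4 falls, leaving out either replicate 2 left 2, and with precursor replicate 3 as the only precursor array there were 0. Of those that did not pass, H2-Aa, Itgax, H2-Eb1 and Fcer1g differed by -0.81, -0.48, -0.47 and -0.40, and Cd68, Xcr1, Adgre1, Itgam, Csf1r and Lyz2 by -0.15 to 0.12. Of 8 B cell markers Blnk fell (-0.80 ± 0.21) and 0 rose (1 and 0 unadjusted), with sums of 487.5 to 943.5 and 590.6 to 1100.9. The Blnk call was lost without precursor replicate 1 (adjusted p = 0.073) or against precursor replicate 3 alone. Of 8 CD8 T cell markers 2 rose and 2 fell, and 1 fall was left without Foxp3+ CD24hi replicate 1 or 2 or without precursor replicate 2 or 3. In each of thymic epithelium (8 markers), erythroid cells (3) and liver (7), 0 rose and 0 fell by limma, and at an unadjusted p under 0.05 1 epithelial marker was higher and 0 others passed. The part of other cell types in the results was not tested.

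Whether a change at the Foxp3 step differed from that at the conventional step was tested with an interaction term. It passed for 1070 genes (5.88%), of which 523 were shifted towards Foxp3+ CD24hi cells (2.87%) and 547 the other way (3.01%). Across all genes the differences of both steps correlated at r = 0.21, and those of the Foxp3 step and of lymph node Tregs against naive cells at r = 0.25. Genes are not independent replicates, and these are descriptions over 18194 genes between comparisons without shared arrays. Of the 30 Treg signature genes 13 passed in the upward direction, the sort gene Foxp3 among them, and 1 in the downward direction. The interferon list passed for 1 upward (Gbp3) and 1 downward (Oas2) of 27, and the mature thymocyte list for 4 upward and 0 downward of 26 (5 and 2 unadjusted), so most of their members did not differ past the threshold between the steps, which does not show that they moved alike. S1pr1 rose by 1.51 and 1.75 at the Foxp3 and conventional steps, Klf3 by 1.90 and 1.50, and Ms4a4b by 1.04 and 1.07. The cell cycle list passed for 0 upward and 12 downward of 29 (0 and 25 at an unadjusted p under 0.05 in limma). Its median was -0.64 at the Foxp3 step and 0.78 at the conventional step, where 1 gene rose and 0 fell (18 and 0 unadjusted).

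The largest upward interactions were Foxp3 (6.08), Cyp4f18 (3.88), Cavin1 (3.25), Gpr83 (3.20), Lhfp (3.13) and Camk2n1 (2.97). Lhfp, a tetraspan membrane protein gene, rose by 1.50 ± 0.23 at the Foxp3 step and fell by 1.63 at the conventional step. Its rise rests on the precursor arrays of 4.67, 4.89 and 6.00, and against the last of these alone it did not pass (0.69, adjusted p = 0.0754). The largest downward interactions were Cxcr6 (-6.04), Klrd1 (-5.14), App (-4.01), Klra5 (-3.94), Ifng (-3.93) and Zbtb16 (-3.72). Apart from App, whose rise did not pass (1.32), these genes rose at the conventional step, by 1.94, 2.56, 1.88, 2.33 and 1.71 for Cxcr6, Klrd1, Klra5, Ifng and Zbtb16. Rag1 fell at both steps (-4.78 and -3.11), and the difference passed (-1.67, adjusted p = 0.0048). Foxp3- CD24hi replicate 3 held liver transcripts (Alb 11.66, against 3.78 and 3.90 in replicates 1 and 2), and without it 918 interactions passed, with all 12 of the genes named here as largest still past the threshold.

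**Figure D5:**
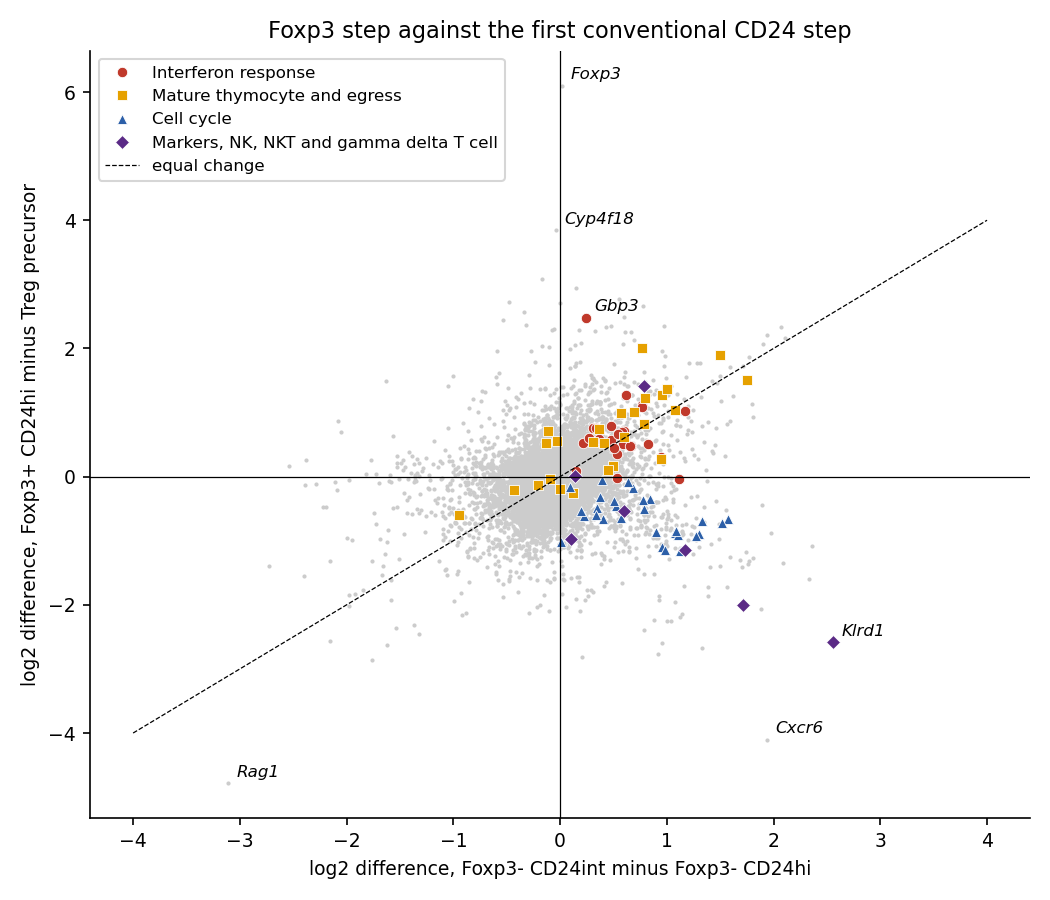
Log2 difference of each of 18194 genes at the Foxp3 step (Foxp3+ CD24hi minus Treg precursor, vertical axis) against the conventional step (Foxp3- CD24int minus Foxp3- CD24hi, horizontal axis), with 4 lists coloured and a dashed line of equal change. Interferon and mature thymocyte genes lie mostly in the upper right, cell cycle genes in the lower right, Foxp3 and Cyp4f18 along the vertical axis, and Rag1 at -4.78 and -3.11 in the lower left.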

How the data were processed

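Messenger RNA of sorted T cells was measured on 27 Affymetrix 3' arrays, 3 for each of 9 groups. Per the labels, RNA was extracted on Qiagen columns and labelled with biotin. The deposited values are intensities whose scale no source used here states. RMA is the tool named in the submitters' processing notes, without version, settings or role. The range is that of linear intensities, so log2 was taken here. Of 45101 probe sets 34958 carry a single gene symbol, and probe sets with several symbols (932) or none (9211) were left out. Each gene was represented by its brightest probe set over the 27 arrays, which gave 18194 genes, 9012 of them with several probe sets. No symbol needed updating against RefSeq (GRCm38.p6). Detection calls were not analysed here.

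Groups came from the source labels. limma 3.58.1 in R 4.3.3 fitted 9 group means on all 27 arrays (18 residual degrees of freedom, prior 5.98), with two-sided p-values adjusted by Benjamini-Hochberg over the 18194 genes of a comparison. The median SE over genes was 0.145 for a difference between groups and 0.205 for an interaction. The fit was tested on simulated data. Replicate numbers come from the description codes of the samples. Deviations from the group means correlated at 0.52, 0.17 and 0.46 between same-numbered arrays of the 2 groups and at -0.46 to 0.04 between others, so the numbers were taken to pair the samples, and a fit with the number as a block was an alternative. Others were the 6 arrays alone, an intensity trend, quantile normalisation, 16 added before log2, the mean of all probe sets, a filter on dim genes (mean log2 under 5), and leaving out each array.

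Named genes were the sort genes, the 4 markers, the 12 largest rises and 12 largest falls among genes that passed without overlap, the 6 largest interactions in each direction, and up to 4 members of each list (up to 3 past the threshold by p, and the brightest member that did not pass). Other genes given with values were chosen after their values were seen. Lists were written from general knowledge, and the comparison, its members and the lists were chosen with earlier results of these data known.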

Additional observations from a re-analysis of the deposited data

Results flagged for a closer look

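The genes below changed differently at the Foxp3 step and at the conventional step by the interaction term of the limma fit, given as the first difference minus the second on the log2 scale. Shifted upward were Foxp3 (6.08), Cyp4f18 (3.88), Cavin1 (3.25), Gpr83 (3.20), Lhfp (3.13), Camk2n1 (2.97), Slc2a3 (2.03) and Gata3 (1.34). Slc2a3, the glucose transporter GLUT3, and Gata3, a CD4 lineage factor, rose at the Foxp3 step (1.21 and 0.62) and fell at the conventional step (-0.82 and -0.71).

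Shifted downward were Cxcr6 (-6.04), Klrd1 (-5.14), App (-4.01), Klra5 (-3.94), Ifng (-3.93), Zbtb16 (-3.72), Maf (-3.11) and Rag1 (-1.67). Maf, a transcription factor of effector and innate-like T cells, fell by 1.41 at the Foxp3 step and rose by 1.70 at the conventional step. In Cxcr6, Klrd1, App, Klra5, Ifng, Zbtb16 and Maf, replicate 3 of the precursors and replicate 3 of the Foxp3- CD24int cells were the lowest of their groups. The part of that replicate number in these interactions was not tested.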

How the results depend on the processing

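Replicate numbers were taken to pair the samples. With the number as a block 1849 genes rose and 2594 fell at the Foxp3 step. In that fit 1822 genes passed at the conventional step, 2240 in the interaction and 2671 at the step before. All 1231 rises and 1686 falls of the unblocked fit also passed with the block. Of the genes named by rule it added calls for Cd27, Cd52, Rtp4, Dnmt1, Ldha, Nkg7 and Klrk1 (adjusted p = 0.0131, 0.00937, 0.00183, 0.00503, 0.0439, 0.0388 and 0.0397) and changed no other call of theirs. Other genes that passed with the block, but not in the unblocked fit, have its p beside their values. Their values in the remaining fits are not given. With the compared groups alone, 819 rose and 985 fell, and 552, 622 and 1001 genes passed at the conventional step, in the interaction and at the step before. Leaving out single arrays gave 919 to 1198 rises and 1075 to 1812 falls (the fewest without Foxp3+ CD24hi replicate 2), 626 to 805 genes at the conventional step, 767 to 1104 in the interaction, 1241 to 1551 at the step before and 1794 to 1973 for lymph node Tregs against naive cells. With precursor replicate 3 as the only precursor array, added after the data were seen, 793 genes rose.

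Among the genes named by rule, the only ones compared here, direction turned only in genes that had not passed. Against precursor replicate 3 alone these were Il7r (1.23, adjusted p = 0.00876), Cd28 (0.13), Satb1 (0.15), Ptprc (0.095) and Klf1 (-0.37). With the mean of all probe sets they were Ets1 (-0.042) and Xiap (-0.11). When single arrays were left out, the range crossed 0 for Dgkz (-0.11 to 0.16), Lgals1 (-0.18 to 0.044), Il7r (-0.81 to 0.24), Ptprc (-0.11 to 0.061), Klf1 (-0.055 to 0.35) and Ighm (-0.059 to 0.57). Arrays of this kind give little signal for dim probe sets, and no detection calls were used here, so small differences at low intensity are the least certain.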
